A study of Mus musculus with 6 samples.

Results

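The ubiquitin-specific proteases (USP enzymes) are the largest family of deubiquitinases, the enzymes that take ubiquitin off proteins. Gene rows of mouse heart RNA sequencing were taken as members when the symbol was Usp followed by a number, Usp18 excepted, and the mean over the 6 libraries was at least 0.5 FPKM (fragments scaled by transcript length and library size). Of 43 such symbols among 26835 listed genes, 38 met the level. The 5 below it were Usp37 at a mean of 0.458, Usp49 at 0.417, Usp35 at 0.342, Usp53 at 0.109 and Usp29 at 0.0101 FPKM. The members just inside were Usp43 at 0.509 and Usp16 at 0.542 FPKM.

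The libraries came from wild type C57BL/6 mice of 7 to 8 weeks and about 20 g, with 2 libraries in each of 3 groups. CFZ_EA mice received carfilzomib at 8 mg/kg with electroacupuncture at the acupoint PC6. CFZ mice received carfilzomib at 8 mg/kg alone. Control mice received 10% DMSO by intraperitoneal injection and no carfilzomib. Every library carries the same label of days 0, 2, 4 and 6, with no word on what was done on which. Whether replicates were separate mice, whether hearts were pooled and which part of the heart was taken are not stated, so p-values measure the spread between these libraries, which may be technical. Carfilzomib is an irreversible proteasome inhibitor used against multiple myeloma that can harm the heart, and electroacupuncture passes a current through acupuncture needles.

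A USP enzyme cuts the bond between ubiquitin and its target, or between the ubiquitins of a chain. Some members edit chains at the proteasome and so decide whether a bound protein is degraded or released, others recycle free chains, and others act on histones, DNA repair factors, endosomal receptors, mitochondrial proteins or signalling kinases. In muscle the family is best known through Usp19, which influences wasting, and through a muscle form of Usp25.

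Estimated counts totalled 50013990 to 75742448 per library. Cardiomyocyte markers (7 of 7 present) summed to 16125 and 14901 FPKM in CFZ_EA, 15984 and 16065 FPKM in CFZ, and 14586 and 14357 FPKM in control, so the tissue label held. A pair of libraries stood apart. Along the axis of greatest variance (36.2%) control replicate 2 scored 58.4 and the others from -25.5 to -0.0223, and its 8 fibroblast markers summed to 1044 FPKM, against 124 to 199 FPKM in the other 5 libraries. CFZ_EA replicate 2 had the highest sum of the 7 atrial cardiomyocyte markers, 5720 FPKM. Atrial sums were 972 and 5720 FPKM in CFZ_EA, 341 and 209 FPKM in CFZ, and 2856 and 1617 FPKM in control. In such bulk tissue, fewer cells of a type and less RNA per cell cannot be told apart. Values without these libraries are given beside the results that they moved most.

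No USP gene was called in any comparison by the main test. In edgeR's quasi-likelihood test, fitted on 12442 genes with calls at an adjusted p under 0.05, 0 of 38 members were called for CFZ against control, where 0.0161% of all genes were called. The count was 0 of 38 for CFZ_EA against CFZ, with 0.0161% of all genes, and 0 of 38 for CFZ_EA against control, with 0.0%. At an unadjusted p under 0.05, 3 members differed between CFZ and control (7.89%, against 7.94% of all genes), 2 between CFZ_EA and CFZ (5.26%, against 3.33%) and 3 between CFZ_EA and control (7.89%, against 5.18%). Those shares lie near the background. DESeq2, run as an alternative, called 1 member, Usp20, in each comparison with control.

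The summed level of the family was similar in all libraries. It came to 171 and 163 FPKM in CFZ_EA, 171 and 155 FPKM in CFZ, and 167 and 163 FPKM in control, and the ranges overlapped. The 5 members at 10 FPKM or more, Usp28, Usp13, Usp5, Usp2 and Usp19, held 47.8% to 53.2% of the sum. A further 18 members lay between 2 and 10 FPKM, 7 between 1 and 2 and 8 between 0.5 and 1. With members ordered by mean FPKM, the library ranges of 34 of 37 neighbouring pairs overlapped. Breaks lay between Usp5 and Usp2, between Usp19 and Usp4, and between Usp39 and Usp8.

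**Figure D1:**
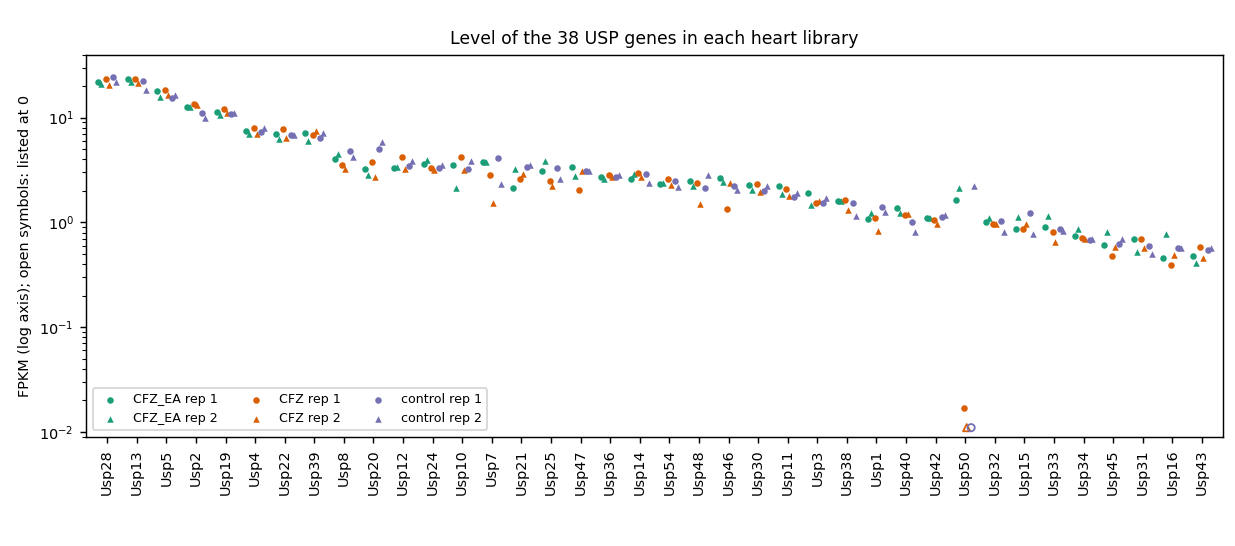
FPKM on a log axis of the 38 USP genes, ordered by mean, in each of the 6 libraries; colours mark the groups, circles replicate 1 and triangles replicate 2, and open symbols stand for libraries listed at 0. The 6 points of most genes lie close together, and Usp50 alone spans from 0 to 2.24 FPKM.

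Most members varied little between libraries. Of the 38, 23 differed less than 1.5-fold between their highest and lowest library, 60.5% against 49.3% of all tested genes, and 35 less than 2-fold, 92.1% against 74.1%. The median ratio of highest to lowest library was 1.37 for the members and 1.51 for all tested genes. Within groups, the median standard deviation (SD) was 0.173 log2 CPM (library-scaled counts) for the members and 0.2 for all tested genes. The steadiest was Usp36, a nucleolar enzyme, with a ratio of 1.11. The members over 2-fold were Usp20 at 2.13, Usp7 at 2.68 and Usp50, for which no ratio exists because some libraries were at 0.

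The enzymes of the proteasome and of free ubiquitin chains differed little between groups. Usp5, which takes apart chains that are attached to no protein, measured 18.0 and 15.9 FPKM in CFZ_EA, 18.2 and 16.3 FPKM in CFZ, and 15.5 and 16.6 FPKM in control. Its paralog Usp13 measured 23.4 and 21.9 FPKM in CFZ_EA, 23.6 and 21.4 FPKM in CFZ, and 22.3 and 18.2 FPKM in control. Usp14, which sits on the proteasome's regulatory particle and trims ubiquitin from bound proteins, measured 2.60 and 2.88 FPKM in CFZ_EA, 2.98 and 2.70 FPKM in CFZ, and 2.92 and 2.37 FPKM in control. The ranges of the groups overlapped for these genes in every comparison, and for Usp13 and Usp14 the lowest library was control replicate 2. For CFZ against control the log2 fold change was 0.17 ± 0.11 (SE) for Usp5, 0.21 ± 0.16 for Usp13 and 0.16 ± 0.18 for Usp14. Without control replicate 2 these values were 0.15 for Usp5, 0.00 for Usp13 and -0.04 for Usp14. For CFZ_EA against CFZ all 3 lay between -0.05 and 0.01. Usp14 shares 2169 exon bases with Thoc1, which lies on the opposite strand and averaged 0.413 FPKM, and the use of strand in counting is not given in the sources used here.

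Usp28 was the most abundant member. It opposes the ubiquitin ligase that marks MYC for degradation and takes part in the DNA damage response, and it measured 21.8 and 21.0 FPKM in CFZ_EA, 23.4 and 20.6 FPKM in CFZ, and 24.2 and 22.0 FPKM in control. The fitted log2 fold changes, -0.01 ± 0.13 for CFZ against control and -0.04 ± 0.13 for CFZ_EA against CFZ, were below their standard errors. Usp19, partly anchored in the endoplasmic reticulum, averaged 10.9 ± 0.493 FPKM in CFZ_EA, 11.6 ± 0.665 FPKM in CFZ and 11.0 ± 0.236 FPKM in control (SD, n = 2 each). Usp30, which removes ubiquitin from the mitochondrial outer membrane and so opposes mitophagy, averaged 2.15 ± 0.154 FPKM in CFZ_EA, 2.15 ± 0.264 FPKM in CFZ and 2.13 ± 0.159 FPKM in control. For Usp4, whose substrates include a TGF-beta receptor, the averages were 7.22 ± 0.377, 7.49 ± 0.650 and 7.58 ± 0.488 FPKM in CFZ_EA, CFZ and control. None of these genes was called or had an unadjusted p under 0.05, and Usp28 was lower in both CFZ_EA libraries than in both control libraries.

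Usp20 gave the smallest p of the family in both comparisons with control. Usp20 (chromosome 2, 30982279 to 31023586, GRCm38), which with its paralog Usp33 returns internalised beta-adrenergic receptors to the cell surface, measured 3.21 and 2.81 FPKM in CFZ_EA, 3.78 and 2.74 FPKM in CFZ, and 5.02 and 5.86 FPKM in control. All 4 carfilzomib-treated libraries lay below both control libraries, and CFZ_EA and CFZ overlapped. The log2 fold change was -0.67 ± 0.16 for CFZ against control (unadjusted p = 0.00557, edgeR adjusted p = 0.602) and -0.78 ± 0.16 for CFZ_EA against control (unadjusted p = 0.00265, edgeR adjusted p = 0.854). For CFZ_EA against CFZ it was -0.11 ± 0.16. DESeq2 gave -0.66 ± 0.19 with an adjusted p of 0.0405 for CFZ against control, and -0.78 ± 0.19 with 0.0149 for CFZ_EA against control. Over all 17 alternatives tried, the adjusted p ran from 0.0405 to 0.955 in CFZ against control and from 0.0149 to 1.0 in CFZ_EA against control. Without any 1 library the log2 fold change stayed between -0.86 and -0.50 for CFZ against control and between -0.86 and -0.70 for CFZ_EA against control. DESeq2 called 1.02% of all genes as lower in CFZ than in control and 0.225% as lower in CFZ_EA than in control. The 2 comparisons share the control libraries.

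Erythroid markers, like Usp20, were lower in both carfilzomib groups than in control. Their sum over 5 genes was 2466 and 3470 FPKM in CFZ_EA, 2654 and 3316 FPKM in CFZ, and 4962 and 5666 FPKM in control. All 5 were below 0 in log2 fold change in both comparisons with control, with medians of -0.755 for CFZ and -0.771 for CFZ_EA, an unadjusted p under 0.05 for each, and none called. None of the 5 was at 0 in any library. Within CFZ_EA and within CFZ, the library with more Usp20 had the lower erythroid sum, and within control the higher. Markers of other cells were lower against control too: all 7 macrophage markers, with medians of -1.061 for CFZ_EA and -0.976 for CFZ, and all 8 fibroblast markers, with medians of -1.599 for CFZ_EA and -2.109 for CFZ, none of them called. Without control replicate 2 the macrophage medians were -0.313 for CFZ_EA and -0.244 for CFZ, and the fibroblast medians -0.108 for CFZ_EA and -0.661 for CFZ, while the erythroid ones were -0.731 and -0.712. All 4 tested epicardial and mesothelial markers were below 0 as well, with medians of -2.195 for CFZ_EA and -3.207 for CFZ, and -1.365 and -2.516 without control replicate 2. Atrial markers were below 0 in CFZ, 7 of 7 with a median of -3.572, and above 0 in CFZ_EA, 7 of 7 with a median of 0.575. The sign in CFZ_EA depended on single libraries. Without CFZ_EA replicate 2 its atrial median was -1.167, with 7 of 7 below 0. Without control replicate 2 it was 0.191, with 4 above 0 and 3 below. Summed macrophage markers came to 217 and 254 FPKM in CFZ_EA, 215 and 246 FPKM in CFZ, and 287 and 838 FPKM in control. The part of these markers in the Usp20 result was not tested.

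Usp2 was higher in the carfilzomib libraries than in control by a smaller step. Usp2 (chromosome 9, 44067021 to 44095627, GRCm38), an output of the circadian clock whose targets include clock proteins and cyclin D1, measured 12.6 and 12.6 FPKM in CFZ_EA, 13.6 and 13.1 FPKM in CFZ, and 11.0 and 9.93 FPKM in control. The 3 groups did not overlap, with CFZ on top. The log2 fold change was 0.41 ± 0.13 for CFZ against control (unadjusted p = 0.0190, edgeR adjusted p = 0.602), 0.33 ± 0.13 for CFZ_EA against control (unadjusted p = 0.0460, edgeR adjusted p = 0.854) and -0.09 ± 0.13 for CFZ_EA against CFZ. Control replicate 2 was the lowest library. Without it the log2 fold change for CFZ against control was 0.27, and without control replicate 1 it was 0.56. All 7 cardiomyocyte markers were above 0 as well, with a median of 0.174 for CFZ_EA and 0.232 for CFZ against control (6 of 7, with 0.078 and 0.102, without control replicate 2), and their part was not tested.

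Most clock genes also had a positive log2 fold change against control. Of 14 tested clock genes, 11 had a log2 fold change above 0 for CFZ against control, with a median of 0.354, 5 at an unadjusted p under 0.05 and 0 called. Of all genes, 49.3% were above 0 and 7.94% had such a p. For CFZ_EA against control 11 lay above 0 and 3 below, with a median of 0.499, 4 at an unadjusted p under 0.05 and 0 called. There the shares of all genes were 49.4% and 5.18%. For CFZ_EA against CFZ the median was -0.054, with 6 genes above 0 and 8 below. Without control replicate 2, 9 of 14 were above 0 in each comparison with control, and the medians were 0.207 for CFZ_EA and 0.236 for CFZ. Dbp, an activator driven by the clock, measured 8.79 and 13.1 FPKM in CFZ_EA, 13.5 and 10.5 FPKM in CFZ, and 6.12 and 6.35 FPKM in control. The repressor Nr1d1 measured 30.9 and 34.9 FPKM in CFZ_EA, 38.4 and 26.5 FPKM in CFZ, and 19.0 and 21.5 FPKM in control. Arntl, the core activator of the opposite phase, measured 1.87 and 1.69 FPKM in CFZ_EA, 1.85 and 1.16 FPKM in CFZ, and 2.23 and 2.83 FPKM in control. The hour at which hearts were taken is not given in the sources used here, and its part was not tested.

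The promoter windows of Usp20 and Usp2, the pair with the smallest p for CFZ against control, are shown 5′ to 3′ on their coding strand from RefSeq (build GRCm38.p6). Each is 300 bases long and reaches past the annotated start, and the capitals mark the letters TGACNNNGC of the antioxidant response element, which NRF1 and NRF2 are known to bind. The Usp20 window is chr2:30982029-30982328 (+ strand, 66.3% G and C), with TGACACCGC at positions 226 to 234 of the window. The Usp2 window is chr9:44084670-44084969 (+ strand, 71.7% G and C), inside the gene's span at one of its starts, with TGACGTCGC at positions 247 to 255.
Usp20: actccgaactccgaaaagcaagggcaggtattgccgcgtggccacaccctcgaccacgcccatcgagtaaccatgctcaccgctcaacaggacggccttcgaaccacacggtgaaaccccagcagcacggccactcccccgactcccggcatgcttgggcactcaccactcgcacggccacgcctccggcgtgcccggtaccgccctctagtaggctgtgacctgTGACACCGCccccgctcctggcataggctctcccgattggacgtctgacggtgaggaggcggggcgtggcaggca
Usp2: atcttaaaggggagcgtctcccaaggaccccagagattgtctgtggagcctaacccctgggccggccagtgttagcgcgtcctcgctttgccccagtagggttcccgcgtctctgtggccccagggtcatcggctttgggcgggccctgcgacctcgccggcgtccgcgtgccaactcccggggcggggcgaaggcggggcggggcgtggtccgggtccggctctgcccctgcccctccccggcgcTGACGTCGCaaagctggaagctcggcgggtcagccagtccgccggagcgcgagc
RefSeq windows were found for 30 of the 38 members. Searched on both strands, TGACNNNGC occurred in 8 of the 30 (26.7%), those of Usp2, Usp10, Usp13, Usp20, Usp25, Usp32, Usp34 and Usp36, and in 12.4% of all 32851 windows of the same length. Member windows were also richer in G and C, with a median of 66.3% against 52.7%. The E-box CACGTG, the clock factors' site, occurred in 4 of 30 (13.3%, Usp4, Usp16, Usp31 and Usp32) and in 7.15% of all windows. The D-box letters TTATGTAA and TTACGTAA occurred in 0 of 30, and in 0.938% and 0.119% of all windows. A match is a run of letters and not a shown binding site.

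For Usp40 the unadjusted p was under 0.05 in CFZ_EA against control. It measured 1.38 and 1.24 FPKM in CFZ_EA, 1.19 and 1.21 FPKM in CFZ, and 1.02 and 0.812 FPKM in control, and the 3 groups did not overlap. Its log2 fold change was 0.56 ± 0.20 for CFZ_EA against control (unadjusted p = 0.0285, edgeR adjusted p = 0.854) and 0.45 ± 0.20 for CFZ against control (unadjusted p = 0.0635). Control replicate 2 was again lowest, and without it the values were 0.35 for CFZ_EA and 0.23 for CFZ. Usp40 shares 62 exon bases with Dgkd on the opposite strand, which averaged 6.65 FPKM.

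**Figure D2:**
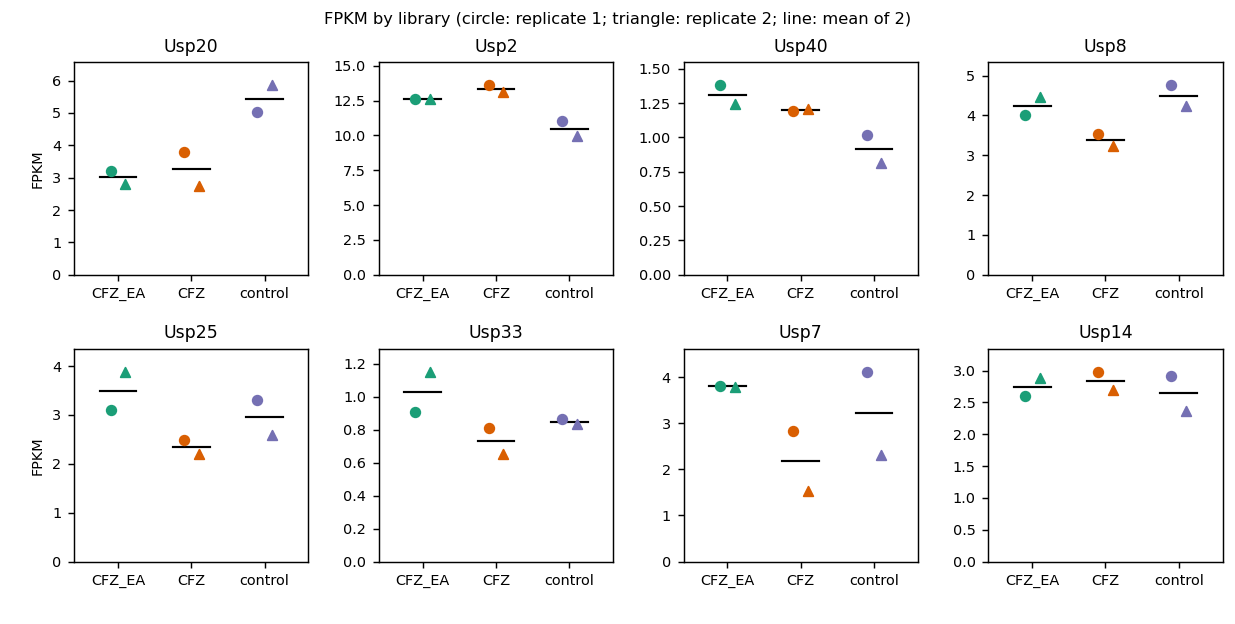
FPKM in each library of 8 USP genes (circles replicate 1, triangles replicate 2, lines the mean of 2 libraries; groups from left to right are CFZ_EA, CFZ and control). Usp20 lay lower in all 4 carfilzomib libraries than in control, Usp2 and Usp40 lay higher, Usp8, Usp25 and Usp33 were lowest in the CFZ libraries, and Usp14 overlapped in all groups.

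Between CFZ_EA and CFZ, more members had groups apart in the higher direction than in the lower. In 12 of 38 (31.6%) both CFZ_EA libraries lay above both CFZ libraries, against 16.9% of all genes, and in 2 of 38 (5.26%), Usp2 and Usp36, they lay below, against 16.7%. The 12 were Usp7, Usp8, Usp24, Usp25, Usp32, Usp33, Usp34, Usp40, Usp42, Usp45, Usp46 and Usp50. Their libraries also differed in tissue markers. For CFZ_EA against CFZ, 7 of 7 atrial markers had a log2 fold change above 0, with a median of 4.066. No marker was at 0, but Bmp10 had only 4 estimated counts in CFZ_EA replicate 1. It had 20749 in CFZ_EA replicate 2, and 31 and 8 in CFZ. Without CFZ_EA replicate 2 the atrial median was 2.463, with 6 of 7 above 0. All 8 fibroblast markers were above 0 too, with a median of 0.437, and so were all 4 tested epicardial and mesothelial markers, with a median of 1.32 that was 0.373 without CFZ_EA replicate 2. The part of these tissues in the members' levels was not tested. The median log2 fold change of the 38 members was 0.091 for CFZ_EA against CFZ, beside -0.008 for all genes, with 22 of 38 above 0 (57.9%, against 48.4%), and with only the 30 members at a mean FPKM of at least 1 it was 0.017.

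Among these 12, Usp25, which acts in immune signalling and in degradation at the endoplasmic reticulum, measured 3.10 and 3.88 FPKM in CFZ_EA, 2.48 and 2.21 FPKM in CFZ, and 3.31 and 2.59 FPKM in control. Its log2 fold change for CFZ_EA against CFZ was 0.57 ± 0.22 (unadjusted p = 0.0376, edgeR adjusted p = 1.0). Both CFZ libraries were the lowest of the 6. The same held for Usp33, at 0.909 and 1.15 FPKM in CFZ_EA, 0.812 and 0.653 FPKM in CFZ, and 0.862 and 0.832 FPKM in control. Its log2 fold change was 0.49 ± 0.20 for CFZ_EA against CFZ. Usp33 shares 1478 exon bases with Gm43857 on the opposite strand, which averaged 0.555 FPKM. Without CFZ_EA replicate 2 the log2 fold changes for CFZ_EA against CFZ were 0.39 for Usp25 and 0.31 for Usp33. Usp8, which spares endocytosed receptors from the lysosome, measured 4.01 and 4.46 FPKM in CFZ_EA, 3.53 and 3.24 FPKM in CFZ, and 4.76 and 4.24 FPKM in control. The log2 fold change of Usp8 was 0.32 ± 0.16 for CFZ_EA against CFZ and -0.34 ± 0.16 for CFZ against control. These 2 comparisons share the CFZ libraries.

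Usp7, which stabilises MDM2 and thereby bears on p53, was the member with the widest replicate spread after Usp50. It measured 3.81 and 3.79 FPKM in CFZ_EA, 2.83 and 1.53 FPKM in CFZ, and 4.11 and 2.32 FPKM in control. Within-group SD was 0.504 log2 CPM. The log2 fold change was 0.81 ± 0.37 for CFZ_EA against CFZ and -0.52 ± 0.37 for CFZ against control. The second value depended on which control library was kept. Leaving out control replicate 2 moved it to -0.93, and leaving out control replicate 1 moved it to 0.03. Usp24, a very large enzyme, measured 3.59 and 3.91 FPKM in CFZ_EA, 3.30 and 3.19 FPKM in CFZ, and 3.28 and 3.55 FPKM in control, with a log2 fold change of 0.21 ± 0.12 for CFZ_EA against CFZ. Usp34, which acts on axin in WNT signalling, averaged 0.802 ± 0.0921 FPKM in CFZ_EA, 0.706 ± 0.0128 FPKM in CFZ and 0.690 ± 0.0119 FPKM in control. It shares 2137 exon bases with Ahsa2 on the opposite strand, whose mean of 3.29 FPKM exceeded its own.

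**Figure D3:**
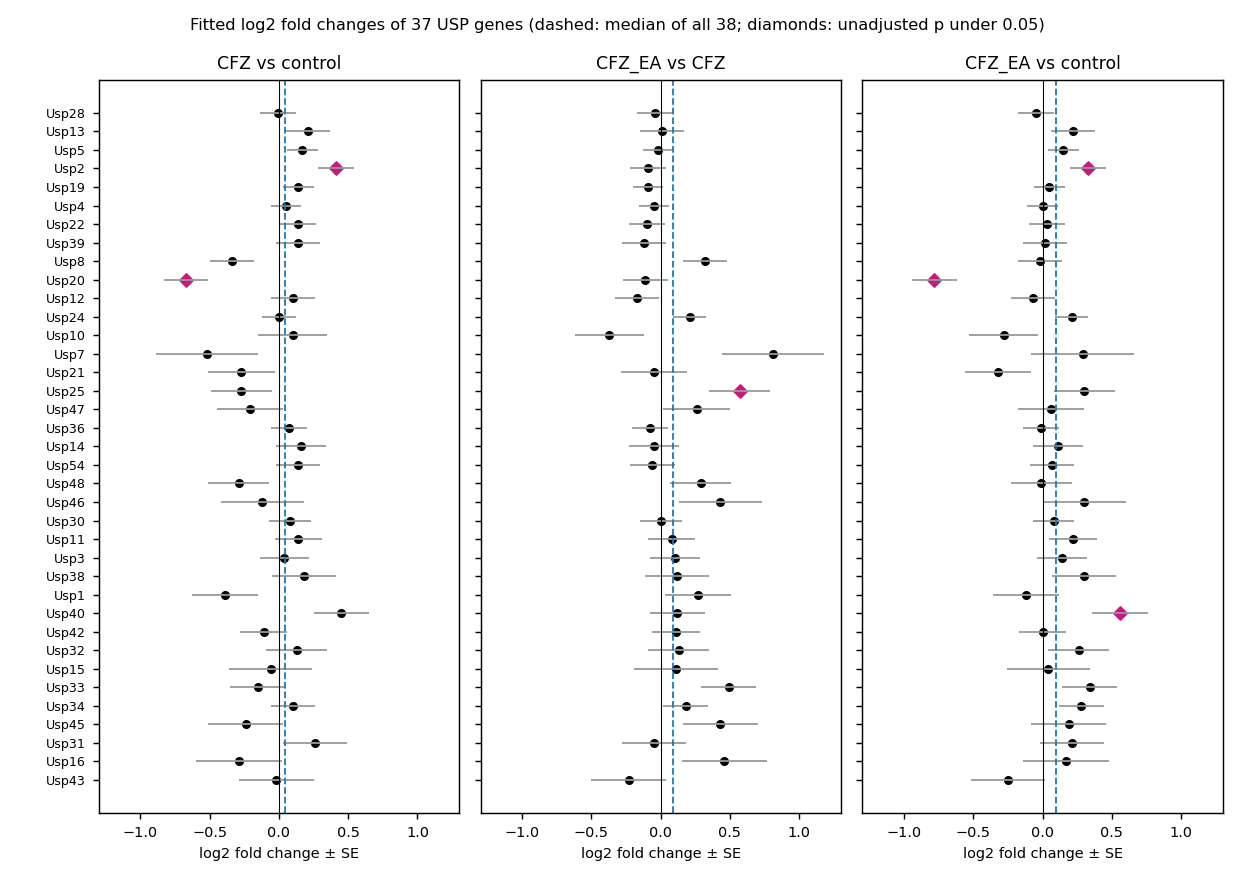
Fitted log2 fold changes with standard errors of 37 USP genes (Usp50 is left out for its range) in the 3 comparisons; dashed lines mark the median of all 38 members and diamonds an unadjusted p under 0.05. Usp20 is the lowest gene shown in both comparisons with control, at -0.67 and -0.78, with Usp7 next at -0.52 in CFZ against control. The medians are 0.045, 0.091 and 0.096.

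Against control, members lay on both sides of 0. For CFZ the median log2 fold change was 0.045, beside -0.005 for all genes, with 20 of 38 members above 0 (52.6%, against 49.3%). That median was -0.031 without control replicate 2 and -0.033 with scaling by library totals, so its sign depended on those choices. For CFZ_EA it was 0.096, beside -0.003, with 26 of 38 above 0 (68.4%, against 49.4%), and without control replicate 2 it was 0.023. Both CFZ libraries lay below both control libraries in 10 members (26.3%, against 22.7% of all genes) and above them in 2, Usp2 and Usp40 (5.26%, against 11.9%). Both CFZ_EA libraries lay below control in 8 members (21.1%, against 22.0%) and above it in 7 (18.4%, against 10.8%).

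**Figure D4:**
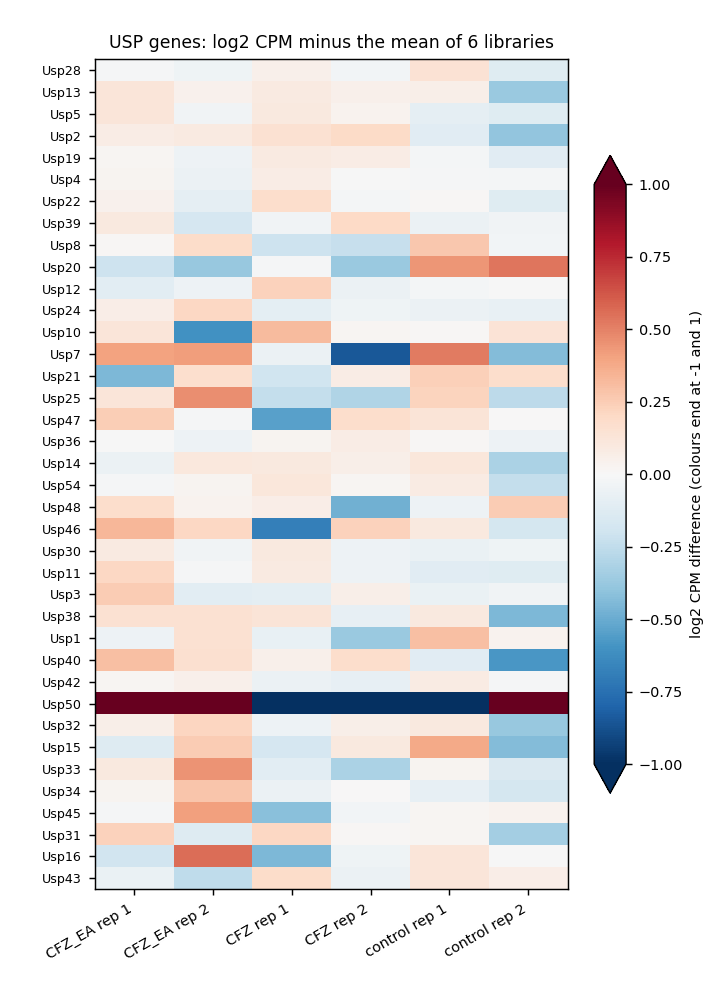
Log2 CPM of each USP gene (rows, ordered by mean FPKM) minus its mean over the 6 libraries (columns, CFZ_EA, CFZ, then control, 2 libraries each); red is above the mean, blue below, and colours end at -1 and 1. Usp20 is red in both control libraries only, and Usp50 is blue in one control library and red in the other.

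By role, the 3 proteasome and free-chain enzymes were all above 0 for CFZ against control, with a median log2 fold change of 0.171. Without control replicate 2 the median was 0.005, with 2 above 0 and 1 below. The 9 members assigned to DNA repair and the cell cycle had 2 above and 7 below 0, with a median of -0.206, and 3 above and 6 below 0 without control replicate 2. One of them is Usp1, which with its partner Wdr48 acts on PCNA and FANCD2 and measured 1.09 and 1.24 FPKM in CFZ_EA, 1.10 and 0.836 FPKM in CFZ, and 1.39 and 1.27 FPKM in control. Its log2 fold change for CFZ against control was -0.39 ± 0.24. For CFZ_EA against CFZ the DNA repair members had a median of 0.264. The 10 members of chromatin, transcription and splicing were divided 5 and 5 for CFZ against control and for CFZ_EA against CFZ. In that role Usp22, the histone deubiquitinase of the SAGA complex, averaged 6.63 ± 0.490 FPKM in CFZ_EA, 7.14 ± 1.02 FPKM in CFZ and 6.79 ± 0.00577 FPKM in control, and Usp39, a splicing factor without protease activity, averaged 6.58 ± 0.903, 7.11 ± 0.454 and 6.81 ± 0.521 FPKM in CFZ_EA, CFZ and control. The 6 endosome and endoplasmic reticulum members were divided 3 and 3 in each comparison. The 7 signalling members were all above 0 for CFZ_EA against control, with a median of 0.284, where 49.4% of all genes were above 0. Without control replicate 2 that count was 6 of 7 with a median of 0.073, without CFZ_EA replicate 2 it was 6 of 7 with 0.149, and without both it was 5 of 7 with 0.103. No role held a called member.

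Usp50 had by far the widest range, and its counts were tied to a second gene model. Estimated counts of Usp50 were 363 and 550 in CFZ_EA, 4 and 0 in CFZ, and 0 and 384 in control. On GRCm38 the processed pseudogene Gm10774 (chromosome 2, 126709354 to 126709557, minus strand) lies within an exon of Usp50 (126709096 to 126709928) on the same strand, so that all 204 of its bases are shared. Gm10774 had 1 and 1 counts in CFZ_EA, 137 and 176 in CFZ, and 189 and 1 in control. In each library 1 of the 2 models held nearly all counts, whatever the group. Added together they came to 364 and 551 in CFZ_EA, 141 and 176 in CFZ, and 189 and 385 in control.

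**Figure D5:**
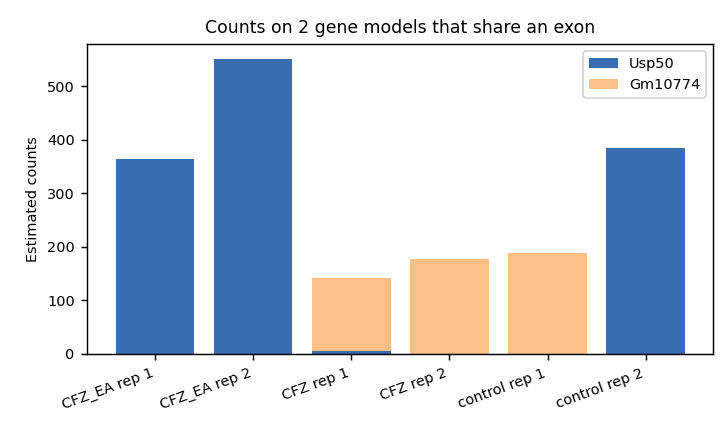
Estimated counts on Usp50 (dark bars) and on the pseudogene Gm10774 inside its exon (light bars, stacked above) in each library, from 0. CFZ_EA replicates and control replicate 2 have their counts on Usp50, and the CFZ replicates and control replicate 1 have theirs on Gm10774.

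The fitted log2 fold change of Usp50 alone was -6.73 ± 2.44 for CFZ against control (edgeR adjusted p = 0.605) and 7.61 ± 2.47 for CFZ_EA against CFZ (edgeR adjusted p = 1.0). Both values rest on the few estimated counts of Usp50 in CFZ, 4 in replicate 1 and 0 in replicate 2. With the counts of both models summed, the values were -1.05 ± 0.41 for CFZ against control (edgeR adjusted p = 0.620), 1.37 ± 0.41 for CFZ_EA against CFZ (edgeR adjusted p = 1.0) and 0.32 ± 0.40 for CFZ_EA against control (edgeR adjusted p = 0.912). Over all 17 alternatives the adjusted p ran from 0.0185 to 0.999 for CFZ against control and from 0.0864 to 1.0 for CFZ_EA against CFZ. Without control replicate 1 Usp50 was called as lower in CFZ than in control, at -7.73 ± 0.74 (edgeR adjusted p = 0.0185), and without control replicate 2 its sign turned, at 4.10. Usp8 lies across the same stretch on the opposite strand, with 0 exon bases shared.

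Other gene models touched the family too. Of the 38 members, 17 had an overlapping model in the GENCODE M21 annotation of the same build and 14 shared exon bases with one, 13 of them on the opposite strand and 2 on the same strand. Usp16 shares 192 exon bases with Cct8, whose mean of 17.2 FPKM exceeded its own 0.542. Reads of such pairs cannot be told apart where strand was not used.

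The partner lists held no called gene either. Of 26 tested deubiquitinases outside the symbol pattern, 0 were called for CFZ against control, with 15 above and 11 below 0 and a median of 0.044. Psmd14, the proteasome's intrinsic deubiquitinase, measured 8.89 and 8.44 FPKM in CFZ_EA, 9.36 and 8.01 FPKM in CFZ, and 8.46 and 7.42 FPKM in control. Uchl5, which also binds the proteasome, averaged 1.70 ± 0.383 FPKM in CFZ_EA, 1.55 ± 0.360 FPKM in CFZ and 1.86 ± 0.397 FPKM in control. Usp9x, an X-linked family member outside the symbol pattern, averaged 2.23 ± 0.679, 2.31 ± 0.180 and 2.22 ± 0.0709 FPKM in CFZ_EA, CFZ and control. Brcc3, which cuts lysine 63 chains, had the list's smallest p for CFZ against control and measured 1.35 and 1.35 FPKM in CFZ_EA, 1.47 and 1.45 FPKM in CFZ, and 1.07 and 1.18 FPKM in control, a log2 fold change of 0.45 ± 0.15 (unadjusted p = 0.0232, edgeR adjusted p = 0.602).

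Among 12 tested cofactors 0 were called. Atxn7l3, which Usp22 needs for its activity, measured 1.93 and 6.66 FPKM in CFZ_EA, 2.29 and 1.98 FPKM in CFZ, and 5.39 and 8.37 FPKM in control. Both CFZ libraries lay below both control libraries, and the CFZ_EA libraries were far apart. The log2 fold change was -1.60 ± 0.55 for CFZ against control (unadjusted p = 0.0260, edgeR adjusted p = 0.602), while that of Usp22 was 0.14 ± 0.13. Hsp90aa1, the inducible HSP90 chaperone that binds Usp19, measured 5.55 and 5.68 FPKM in CFZ_EA, 3.89 and 3.61 FPKM in CFZ, and 4.93 and 7.90 FPKM in control. Its log2 fold change (CFZ against control) was -0.69 ± 0.20 (unadjusted p = 0.0137, edgeR adjusted p = 0.602). Without any 1 library that value lay between -0.94 and -0.40. Wdr48 averaged 2.11 ± 0.0293 FPKM in CFZ_EA, 2.07 ± 0.221 FPKM in CFZ and 2.50 ± 0.241 FPKM in control.

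The ubiquitin gene Ubb was far more abundant than any member. It measured 353 and 343 FPKM in CFZ_EA, 366 and 388 FPKM in CFZ, and 366 and 416 FPKM in control. Of the 5 tested ubiquitin and E1 genes 0 were called, and the log2 fold change for CFZ against control was 0.02 ± 0.13 for Ubb.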

How the data were processed

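RNA was measured in 6 mouse heart libraries. Per the labels' protocols, poly(A) RNA was selected on oligo(dT), a dUTP kit marked the strand and fragments were sequenced in pairs. Tools in the submitters' processing notes are HISAT2 2.0.4, StringTie 1.3.4d and cutadapt 1.9, and the build is GRCm38. Annotation, filters and use of strand are not given in the sources. The authors' FPKM values and one count per gene and library were deposited in 1 table, per the file headers. The deposited counts were handled as estimated counts, rounded. At counts of 1 to 20, 42.2% to 43.3% per library were multiples of 4, and what 1 count stands for is not given. Totals ran from 50013990 to 75742448, and 3 counts correspond to 0.0396 to 0.06 CPM. Such floors cover counting error only, as PCR copies are not independent.

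Genes with a mean of at least 0.5 FPKM, 12442 in all, were tested with edgeR 4.0.16 (R 4.3.3): TMM factors of 0.950 to 1.09, 1 quasi-likelihood fit of all 6 libraries with group as its only term, 3 residual degrees of freedom, and Benjamini-Hochberg adjusted p-values called under 0.05. The smallest p of an exact test on 2 against 2 libraries is 0.333, and no such test was run. The edgeR steps were run on simulated counts with planted changes. That simulation held no libraries that stood apart, so it does not cover their effect. FPKM values are given per library or as mean ± SD, and log2 fold changes with a standard error. For edgeR it was derived as the size of the log2 fold change divided by the square root of the test's F statistic. DESeq2 reports its own. Alternatives were limma 3.58.1 on log2(FPKM + 1) and log2(FPKM + 0.1), DESeq2 1.42.0, other scalings and filters, 2 groups at a time, a block for the replicate number, and leaving out each library in turn. Added after the data were seen were the fit without both libraries that stood apart, the role and list medians without one or both of them, and the sum of Usp50 and Gm10774.

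The members and lists were chosen with earlier results of these data known. Members were named if called, if among the 6 smallest unadjusted p of a comparison, if among the 8 most abundant, or for a known role in the proteasome, muscle, mitochondria or clock. Partner genes were named by the 4 smallest p per list and as defining genes, and not all of these are reported here. The role groups put each member in 1 group. Promoter windows are RefSeq's, matched by symbol.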

Additional observations from a re-analysis of the deposited data

How the results depend on the processing

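Each named member's log2 fold change was recomputed under the alternatives, and a turned sign was counted where the reported value was at least its standard error or either was called. Of these recomputed values 950 stayed on their side of the threshold with no such turn, 3 passed it (Usp20 with DESeq2 in both comparisons with control, and Usp50 without control replicate 1) and 4 turned sign. For CFZ against control the median log2 fold change of the members was -0.033 with library totals, -0.018 and -0.024 with limma on log2(FPKM + 1) and log2(FPKM + 0.1), and -0.031 without both libraries that stood apart. For CFZ_EA against CFZ it was 0.017 with the filter at a mean FPKM of 1, and for CFZ_EA against control 0.028, 0.022, 0.035 and 0.041 under the 4 settings given for CFZ against control, in that order. Leaving out 1 library at a time gave medians of -0.031 to 0.063 for CFZ against control, 0.037 to 0.095 for CFZ_EA against CFZ and 0.023 to 0.15 for CFZ_EA against control. DESeq2 called 1 member in each comparison with control, Usp20, and 161, 68 and 60 genes in all for CFZ against control, CFZ_EA against CFZ and CFZ_EA against control, where edgeR called 2, 2 and 0. For CFZ against control edgeR called 4 genes with no filter, 0 with only the 2 groups compared and 32 without both libraries that stood apart. Without those libraries it called 4 for CFZ_EA against CFZ and 1 for CFZ_EA against control. Without any 1 library, members called ran from 0 to 1 for CFZ against control (Usp50) and stayed at 0 in the others, and all genes called numbered 0 to 354, 0 to 7 and 0 to 234. The signs that turned were those of Usp25 for CFZ_EA against control, -0.11 without both libraries that stood apart, of Usp50 for CFZ against control, 4.10 without control replicate 2 and 4.05 without both, and of Usp7 for CFZ against control, 0.03 without control replicate 1. Over single libraries left out, those values reached 0.07 to 0.56 for Usp25, -10.78 to 4.10 for Usp50 and -0.97 to 0.03 for Usp7. The cause of these changes was not tested. Same-numbered replicates did not deviate together (correlations of -0.0683, -0.0462 and 0.0837), and with the replicate block 0 members were called in each comparison, 2, 2 and 0 genes were called, and the medians were 0.045, 0.088 and 0.101. Depth limits the lowest members most: Usp43 had 150 estimated counts in control replicate 2.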
